A study of Mus musculus with 12 samples.

Results

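The genes described here handle plasma lipoproteins at the liver. They are the uptake receptor genes Lrp1 and Scarb1, the hepatic lipase gene Lipc, the cholesterol-esterifying enzyme gene Lcat, the phospholipid transfer protein gene Pltp, the lipid exporter gene Abca1 and the angiopoietin-like genes Angptl4 and Angptl8. The 8 genes were picked by symbol, for their place in lipoprotein uptake and remodelling; no threshold on a measured value was used, although earlier results of these data were known. All 8 were among the 55414 genes of the count table, and all 8 passed the filter on low counts that left 14919 genes for testing.

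Transcripts were counted by RNA sequencing of primary mouse hepatocytes in 4 groups of 3 libraries, 12 in all. The groups were wild-type (WT) cells with DMSO vehicle, WT cells with MJ041, Hnf4a knockout (KO) cells with vehicle and KO cells with MJ041. MJ041 is a compound known here by its code name alone, which the title presents as a candidate ligand in work on Hnf4a and sepsis. The labels give no dose, treatment time, animal age or strain, and they do not say how or in which exons Hnf4a was deleted. They also do not say whether the libraries of a group are separate animals, and p-values therefore reflect the spread among these samples alone, which may be technical.

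Lipoproteins carry cholesterol and triglyceride through the blood, and the liver both secretes them and clears them. LRP1 takes up remnant particles, and SR-BI, the product of Scarb1, takes cholesteryl ester from HDL. ABCA1 loads lipid onto apolipoprotein A-I to start HDL, LCAT esterifies the cholesterol in it, and hepatic lipase and PLTP remodel the particles. ANGPTL4 and ANGPTL8 restrain lipoprotein lipase, the former mainly in fasting and the latter after feeding. HNF4A is a nuclear receptor that keeps many hepatocyte genes active.

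Each library held 16740761 to 17902832 counts. Levels are read counts relative to the library total (CPM) after TMM scaling, given as mean ± SD with n = 3 libraries a group unless stated. Hnf4a transcripts stood at 124 CPM in WT and 65.1 CPM in KO with vehicle, a log2 fold change of -0.92 ± 0.10 (SE), or 52.7% of WT (adjusted p = 8.86e-06, edgeR). With MJ041 they stood at 162 CPM in WT and 67.5 CPM in KO, -1.26 ± 0.10, or 41.7% of WT (adjusted p = 6.28e-07, edgeR). For MJ041 against vehicle in WT the Hnf4a value was 0.39 ± 0.10, which did not pass (adjusted p = 0.0622, edgeR). Since the deleted exons are not given, counts over the whole gene check the label only in part. Summed hepatocyte markers ran from 53000 to 70150 CPM in WT and from 21960 to 25320 CPM in KO libraries. Among these 8 markers 7 fell in KO with each treatment, beside 26.9% of all genes with vehicle and 27.6% with MJ041. Of 35 markers of Kupffer, endothelial and stellate cells, 32 passed the filter, and the stellate genes Lrat, Des and Colec11 did not. Clec4g, an endothelial marker, was at 0 in 1 WT library with vehicle. Summed over the 32, these markers ran from 563 to 942 CPM in WT with vehicle, 407 to 712 CPM in WT with MJ041, 784 to 975 CPM in KO with vehicle and 826 to 899 CPM in KO with MJ041. Replicates 1 and 2 of WT with MJ041 had the lowest sums of all 12 libraries, at 407 and 458 CPM, and the third replicate of each WT group had the highest sum of its group. With vehicle the Kupffer marker Mpeg1 alone gave 131.3 CPM of the WT sum and 281 CPM of the KO sum on average. Of the 32 markers, 5 rose and 5 fell in KO with vehicle. The mean log2 CPM of the 32 ran from 2.798 to 3.636 in WT and from 3.018 to 3.516 in KO with vehicle. These ranges overlapped. By library the sums with vehicle were 667, 563 and 942 CPM in WT and 784, 975 and 866.5 CPM in KO, so their overlap rests on the third WT library. Whether the content of other cells differed between the genotypes was not tested. In bulk RNA, fewer cells of a type and less RNA per cell cannot be told apart, which holds for every level below.

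With vehicle, the comparison of KO with WT cells asks which of these genes depend on the Hnf4a genotype. Lrp1 and Abca1 transcripts rose in KO cells, and Lipc, Lcat and Angptl4 transcripts fell. The rest, Scarb1, Pltp and Angptl8, did not pass the test. So 5 of 8 genes passed an adjusted p of 0.05, against 54.5% of all tested genes, a share near that background. The 2 of 8 that rose stand beside 27.5% of all genes that rose, and the 3 of 8 that fell beside 26.9% that fell. A change of at least 2-fold was called for Lrp1 and Lipc, 2 of 8, where 15.2% of all genes had one. The median log2 fold change was -0.25 over the 8 genes and -0.00 over all genes.

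The receptor Lrp1, a large endocytic receptor for remnants and many other ligands, was measured at 160, 178 and 171 CPM in the WT libraries with vehicle and at 511, 543 and 513 CPM in the KO libraries with vehicle. With MJ041 the WT libraries had 181, 209 and 185 CPM and the KO libraries 505, 500 and 505 CPM. Every KO library lay above every WT library, and the KO groups were tight around their means of 523 ± 18.0 and 504 ± 2.84 CPM. Lrp1 rose 3.08-fold with vehicle, a log2 fold change of 1.62 ± 0.06 (adjusted p = 6.87e-10, edgeR). With the other-cell marker level as a covariate, the value was also 1.62 (adjusted p = 7.33e-10, edgeR).

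Scarb1, the gene of the HDL receptor SR-BI, had 168, 169 and 158 CPM in WT and 143, 175 and 158 CPM in KO cells with vehicle. The groups overlapped, and the log2 fold change of -0.06 had a 95% interval from -0.25 to 0.13 (adjusted p = 0.581, edgeR). A change of 2-fold in either direction lies outside that interval.

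Lipc, which encodes the hepatic lipase that hydrolyses triglyceride and phospholipid of HDL and remnants, showed the widest difference of the 8 genes. The WT libraries had 53.0, 55.2 and 63.6 CPM with vehicle and 73.0, 64.0 and 61.5 CPM with MJ041. The KO libraries had 2.69, 4.88 and 4.80 CPM with vehicle and 2.53, 2.17 and 3.16 CPM with MJ041, from 38 to 86 counts each. No KO library came within reach of a WT library, yet the transcript was still counted in all of them. With vehicle Lipc fell 13.9-fold in KO, with a log2 fold change of -3.79 ± 0.17 (adjusted p = 2.37e-09, edgeR).

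Because Lipc and Lrp1 were the genes that changed at least 2-fold in this comparison, the sequences at their annotated starts are shown, from 250 bases before to 50 bases after each start (RefSeq, GRCm38.p6, minus strand, printed 5′ to 3′). Lipc has a pair of annotated starts, and the gene counts do not separate them. Capitals mark every match to the motifs searched.
Lipc, chr9:70952172-70952471: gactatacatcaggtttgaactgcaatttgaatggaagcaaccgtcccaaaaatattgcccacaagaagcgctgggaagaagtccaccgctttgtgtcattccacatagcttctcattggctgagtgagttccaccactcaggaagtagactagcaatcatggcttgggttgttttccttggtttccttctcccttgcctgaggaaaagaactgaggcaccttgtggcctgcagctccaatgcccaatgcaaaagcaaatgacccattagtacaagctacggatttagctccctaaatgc
Lipc, chr9:70934759-70935058: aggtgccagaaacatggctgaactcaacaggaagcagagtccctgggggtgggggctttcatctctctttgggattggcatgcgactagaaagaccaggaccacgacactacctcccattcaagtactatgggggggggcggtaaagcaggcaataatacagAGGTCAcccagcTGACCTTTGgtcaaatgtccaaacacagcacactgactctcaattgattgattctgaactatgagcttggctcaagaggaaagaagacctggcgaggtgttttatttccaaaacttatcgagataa
Lrp1, chr10:127621099-127621398: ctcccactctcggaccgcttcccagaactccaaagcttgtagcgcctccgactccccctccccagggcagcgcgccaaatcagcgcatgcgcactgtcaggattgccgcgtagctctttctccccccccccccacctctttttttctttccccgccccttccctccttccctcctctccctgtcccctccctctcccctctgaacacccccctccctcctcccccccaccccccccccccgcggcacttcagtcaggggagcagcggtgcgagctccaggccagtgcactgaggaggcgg
Such windows were found for Lrp1, Lipc, Lcat, Pltp, Abca1 and Angptl8, 7 windows of 6 genes. Both strands were searched for the HNF4A-type site CAAAGTCCA, its looser form CAAAGNNCA, the nuclear receptor half-site AGGTCA, direct repeats of AGGTCA with 1 or 4 bases between, and the HNF1-type half-site GTTAAT. Of the 7 windows, the second Lipc window held matches: AGGTCA on the plus strand of the window at -88 and on the other strand at -76, the latter overlapped by CAAAGNNCA, also at -76 on the other strand. The other 6 windows held no exact match to these motifs. Sites that depart from these letters were not searched, so their absence is not shown. Over all 32851 windows of this length, 16.3% held AGGTCA, 6.36% CAAAGNNCA, 0.475% CAAAGTCCA, 7.10% GTTAAT, 0.0396% the repeat with 1 base between and 0.0152% that with 4. These matches are letters in a window and not measured binding.

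Lcat encodes the plasma enzyme that esterifies HDL cholesterol. Its level was 73.9, 74.6 and 73.7 CPM in WT and 35.5, 43.8 and 39.5 CPM in KO cells with vehicle. The WT libraries agreed to within 1 CPM of each other and all lay above the KO libraries. Lcat fell 1.87-fold, a log2 fold change of -0.90 ± 0.09 (adjusted p = 4.06e-06, edgeR).

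Pltp, whose product moves phospholipid from triglyceride-rich particles to HDL, was the least abundant of the 8 genes in counts in WT cells. The WT libraries with vehicle had 5.97, 5.31 and 13.0 CPM and the KO libraries 8.97, 9.18 and 9.31 CPM. The third WT library alone lay above the KO libraries, and the other WT libraries lay below them. The log2 fold change of 0.17 ± 0.30 did not pass the test (adjusted p = 0.65, edgeR; 95% interval -0.47 to 0.82). Without the third WT library with vehicle it was 0.66 (adjusted p = 0.0347, edgeR), and without the first or the second it was -0.01 or -0.10. That library also had the highest Kupffer marker sum of the WT libraries, 480 CPM, against 293 and 239 CPM in the other vehicle libraries of WT. With the other-cell marker level as a covariate the Pltp value was 0.13 ± 0.18 (adjusted p = 0.568, edgeR). In the GENCODE annotation, Pltp (chr2:164839518-164857711, minus strand, GRCm38) shares 495 exon bases with Ctsa, a lysosomal protease gene on the opposite strand measured at 171 ± 1.31 CPM in WT and 145 ± 4.57 CPM in KO with vehicle. The strand setting of the counting is not given in the sources used here, so reads of these genes could be shared.

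Abca1, the exporter that makes nascent HDL, had 116, 127 and 101 CPM in WT and 191, 192 and 201 CPM in KO cells with vehicle. All KO libraries lay above all WT libraries. Abca1 rose 1.70-fold, a log2 fold change of 0.76 ± 0.11 (adjusted p = 6.34e-05, edgeR). The value was 0.82 with the other-cell marker level as a covariate (adjusted p = 9.85e-08, edgeR).

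Among the angiopoietin-like genes, Angptl4 had 204, 186 and 172 CPM in WT and 131, 111 and 111 CPM in KO cells with vehicle. The groups did not overlap. Angptl4 fell 1.59-fold, a log2 fold change of -0.67 ± 0.10 (adjusted p = 6.84e-05, edgeR). Angptl8 had 46.0, 65.0 and 124 CPM in WT and 50.7, 60.1 and 62.5 CPM in KO cells with vehicle. Its WT libraries spread widely, and the KO libraries lay inside that spread. The log2 fold change of -0.44 ± 0.27 did not pass the test (adjusted p = 0.192, edgeR; 95% interval -1.04 to 0.15). Without the third WT library with vehicle it was 0.03, and without the first it was -0.72 (adjusted p = 0.0208, edgeR). Without the filter on low counts a like value, -0.43 ± 0.12, passed (adjusted p = 0.00196, edgeR). Angptl8 (chr9:21835510-21837347, plus strand, GRCm38) lies inside Dock6, a gene on the opposite strand with which it shares no exon base.

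**Figure D1:**
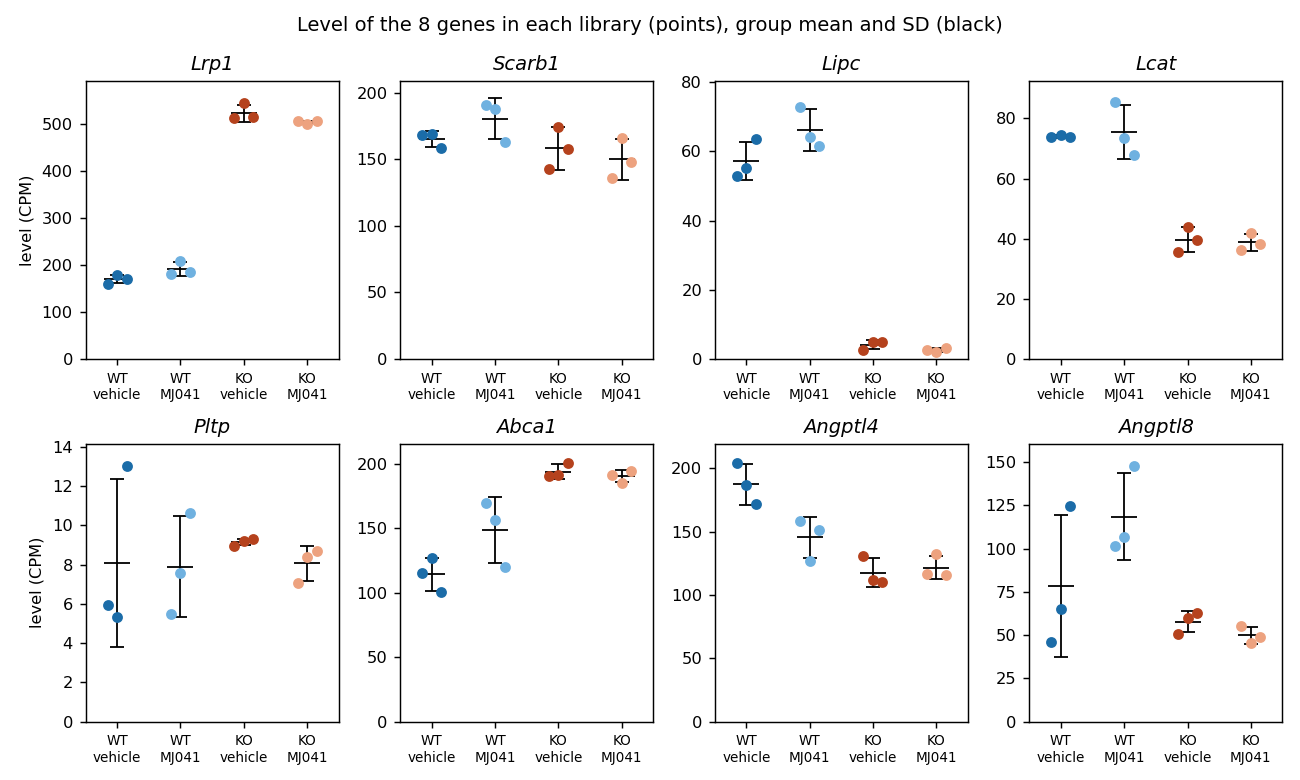
Level of each of the 8 genes, in CPM on a linear axis from 0, in the 12 libraries (points), with the group mean and SD in black. The KO libraries lie apart from the WT libraries for Lrp1, Lipc, Lcat and Abca1 under both treatments, while Pltp and Angptl8 spread widely within WT.

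The order of the genes was read from levels per length, in CPM per kilobase of exon of the GENCODE annotation of GRCm38, which is not the mm39 annotation behind the counts. In WT cells with vehicle the order was Angptl8 (90.7 ± 47.3), Lcat (55.2 ± 0.331), Angptl4 (52.9 ± 4.59), Lipc (26.6 ± 2.60), Scarb1 (19.4 ± 0.712), Abca1 (11.0 ± 1.26), Lrp1 (9.59 ± 0.513) and Pltp (3.16 ± 1.67). The libraries of Angptl8 and Lcat, of Lcat and Angptl4, and of Abca1 and Lrp1 overlapped, so those neighbours were not apart beyond their spread. In KO cells with vehicle Lipc moved from the fourth place to the last, at 1.92 ± 0.579. Lrp1 stood beside Lcat there, at 29.5 ± 1.02 and 29.5 ± 3.09, and their libraries overlapped. Angptl8 kept the first place in all 4 groups, with 137 ± 29.2 in WT with MJ041, 66.8 ± 7.20 in KO with vehicle and 57.7 ± 5.90 in KO with MJ041.

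The comparison of MJ041 with vehicle in WT cells asks whether the compound moves these genes where Hnf4a is intact. None of the 8 genes passed the test, against 2.21% of all tested genes, 329 in number. At an unadjusted p under 0.05 edgeR counted 4 of 8, Lrp1, Abca1, Angptl4 and Angptl8, against 21.6% of all genes. DESeq2 called 2 of 8, Abca1 and Angptl4, against 6.49% of the genes it tested. This comparison uses the same WT vehicle libraries as that of KO with WT under vehicle.

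Angptl4 with MJ041 was measured at 158, 127 and 151 CPM in WT, each below the lowest WT vehicle library at 172 CPM. The log2 fold change was -0.37 ± 0.10 (adjusted p = 0.0649, edgeR; 95% interval -0.57 to -0.16), and DESeq2 gave -0.37 (adjusted p = 0.0107). Without the third MJ041 library of WT the edgeR value was -0.40 (adjusted p = 0.0318). Lrp1 was higher in every MJ041 library of WT than in every vehicle library of WT, by 0.17 ± 0.06 on the log2 scale (adjusted p = 0.138, edgeR). So the libraries of 2 of 8 genes did not overlap, against 22.3% of all genes.

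Abca1 had 170, 157 and 120 CPM in the MJ041 libraries of WT, of which the third lay among the vehicle libraries. The log2 fold change was 0.38 ± 0.11 (adjusted p = 0.0811, edgeR), and DESeq2 gave 0.37 (adjusted p = 0.0203). The first and second MJ041 libraries, with the higher Abca1 values, are those with the lowest other-cell marker sums, and the third has the highest sum of its group. With the marker level as a covariate the Abca1 value was 0.17 (adjusted p = 0.278, edgeR). Of the 32 markers 26 were lower and 6 higher with MJ041 in WT, at a median of -0.62, and 0 passed, against 2.21% of all genes. The covariate thus partly goes with the treatment in WT, and their parts cannot be told apart. Without both low libraries the Abca1 value was 0.07 ± 0.11. This leaves 1 WT library with MJ041, whose spread is assumed to be that of the other groups. Without the third MJ041 library it was 0.51 (adjusted p = 0.00278, edgeR).

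Angptl8 had 101, 106 and 147 CPM in the MJ041 libraries of WT, which overlapped the vehicle range of 46.0 to 124 CPM. The log2 fold change was 0.59 ± 0.27 (adjusted p = 0.226, edgeR), 1.08 without the third vehicle library (adjusted p = 0.0498, edgeR) and 1.01 with the marker covariate (adjusted p = 0.106, edgeR). Dock6, the gene that surrounds it, stood at 29.4 ± 7.47 CPM with vehicle and 43.0 ± 3.57 CPM with MJ041 in WT, a log2 fold change of 0.55 ± 0.16 (adjusted p = 0.0847, edgeR). The share of Dock6 reads in the Angptl8 counts was not tested. Scarb1 had 191, 188 and 163 CPM, Lcat 85.5, 73.3 and 67.8 CPM and Pltp 5.50, 7.57 and 10.6 CPM with MJ041 in WT. These and Lipc had log2 fold changes of 0.13, 0.03, -0.04 and 0.21, with adjusted p from 0.391 to 0.96 (edgeR).

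**Figure D2:**
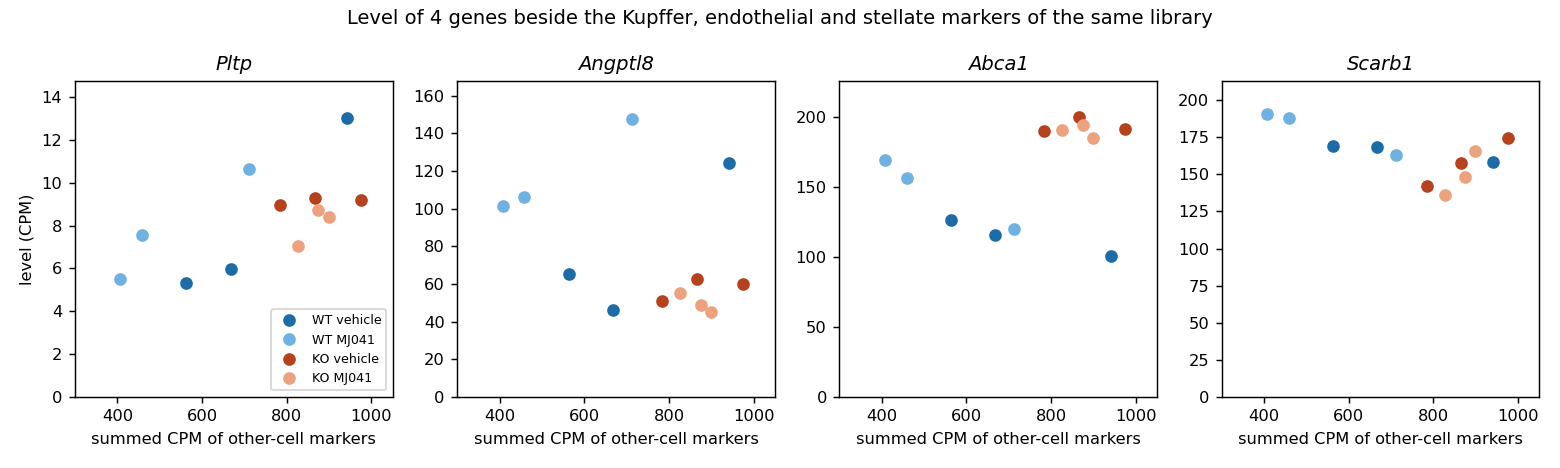
Level of Pltp, Angptl8, Abca1 and Scarb1 (CPM, linear axis from 0) against the summed CPM of the Kupffer, endothelial and stellate markers of the same library, with 1 point per library coloured by group. Within WT, the libraries with low marker sums, at 407 and 458 CPM, have the highest Abca1 and Scarb1 levels, while the highest Pltp level, 13.0 CPM, is in the WT library with the highest sum, 942 CPM.

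In KO cells MJ041 moved none of the 8 genes past the threshold, and 0% of all tested genes passed it either by edgeR, and DESeq2 likewise called 0 of 8 genes and 0% of all. At an unadjusted p under 0.05 edgeR counted 1 of 8, Lipc, against 2.77% of all genes. The log2 fold changes of the 8 genes ran from -0.65 for Lipc to 0.05 for Angptl4, each with an adjusted p of 1 (edgeR). Lipc stood at 4.12 ± 1.25 CPM with vehicle and 2.62 ± 0.497 CPM with MJ041 in KO, and these libraries overlapped. Lrp1 and Pltp did not overlap, 2 of 8 against 9.51% of all genes, at log2 fold changes of -0.05 ± 0.06 and -0.18 ± 0.30. The 95% interval was -0.26 to 0.20 for Abca1, -0.16 to 0.26 for Angptl4 and -0.82 to 0.39 for Angptl8.

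Whether the MJ041 response differed between the genotypes was tested as an interaction, the response in KO minus that in WT. By edgeR 0 of 8 genes passed, as did 0% of all genes, and at an unadjusted p under 0.05 there were 4 of 8, Lrp1, Lipc, Abca1 and Angptl4, against 13.3%. DESeq2 called Lipc, 1 of 8, at -0.87 (adjusted p = 0.0393), against 1.77% of the genes it tested. By edgeR the Lipc value was -0.86 ± 0.26 (adjusted p = 0.202), that of Angptl8 -0.81 ± 0.39 (adjusted p = 0.396) and that of Angptl4 0.41 ± 0.14 (adjusted p = 0.231). Abca1 had -0.41 ± 0.15 (adjusted p = 0.27, edgeR), which was -0.54 without the third MJ041 library of WT (adjusted p = 0.0178, edgeR) and -0.17 with the marker covariate (adjusted p = 0.493, edgeR).

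Under MJ041, the comparison of KO with WT used the other 6 libraries. Lrp1 and Abca1 rose and Scarb1, Lipc, Lcat, Angptl4 and Angptl8 fell, so that 7 of 8 genes passed, against 54.4% of all genes. Of all genes 26.8% rose and 27.6% fell, beside 2 and 5 of the 8. Pltp, at 7.07, 8.41 and 8.71 CPM in KO with MJ041, did not pass, at 0.03 ± 0.30 (adjusted p = 0.947, edgeR). With the marker covariate its value was -0.61 ± 0.23 (adjusted p = 0.0402, edgeR). At least 2-fold and called were Lrp1, Lipc and Angptl8, 3 of 8, against 15.5% of all genes. The libraries of 5 of 8 genes did not overlap between the genotypes under each treatment (Lrp1, Lipc, Lcat and Abca1, with Angptl4 under vehicle and Angptl8 under MJ041), against 63.1% of all genes with vehicle and 59.2% with MJ041.

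Lipc fell 25.2-fold under MJ041, a log2 fold change of -4.66 ± 0.18 (adjusted p = 6.3e-10, edgeR), and Lrp1 rose 2.63-fold, by 1.39 ± 0.06 (adjusted p = 2.73e-09, edgeR). Lcat had 36.4, 41.9 and 38.2 CPM in KO with MJ041, below every WT library, and its value was -0.96 ± 0.09 (adjusted p = 2.36e-06, edgeR). Abca1 had 191, 186 and 195 CPM in KO with MJ041, above every WT library, and rose by 0.36 ± 0.11 (adjusted p = 0.0126, edgeR). Its value was 0.65 with the marker covariate (adjusted p = 1.16e-05, edgeR).

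Angptl8 had 55.4, 45.3 and 49.0 CPM in KO with MJ041, below every WT library with MJ041. It fell 2.38-fold, a log2 fold change of -1.25 ± 0.28 (adjusted p = 0.00189, edgeR). Dock6 fell as well under MJ041, with -0.54 ± 0.16 (adjusted p = 0.0113, edgeR). Angptl8 was called under MJ041 and not with vehicle, but the difference of these values is the interaction above, which did not pass.

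Scarb1 and Angptl4 were called under MJ041 although their libraries overlapped. Scarb1 had 136, 166 and 148 CPM in KO with MJ041 and a log2 fold change of -0.27 ± 0.09 (adjusted p = 0.0217, edgeR). It missed the threshold without the first WT library with MJ041 (-0.23, adjusted p = 0.0726, edgeR), without the first KO library with MJ041 (-0.21, adjusted p = 0.0648, edgeR) and with the marker covariate (-0.20, adjusted p = 0.165, edgeR). Angptl4 had 117, 132 and 116 CPM in KO with MJ041 and a log2 fold change of -0.26 ± 0.10 (adjusted p = 0.0366, edgeR). It missed the threshold without the first or the third WT library with MJ041 (adjusted p = 0.13 and 0.0845, edgeR), without the first or the third KO library with MJ041 (adjusted p = 0.0853 and 0.0967, edgeR) and with the marker covariate (-0.20, adjusted p = 0.178, edgeR). Scaling by library totals alone gave Angptl4 -0.19 (adjusted p = 0.117, edgeR). Beside these values, 10 of the 32 tested other-cell markers rose and 1 fell in KO against WT under MJ041. Of all genes 26.8% rose and 27.6% fell there. With vehicle 5 of the 32 rose and 5 fell, beside 27.5% and 26.9% of all genes.

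**Figure D3:**
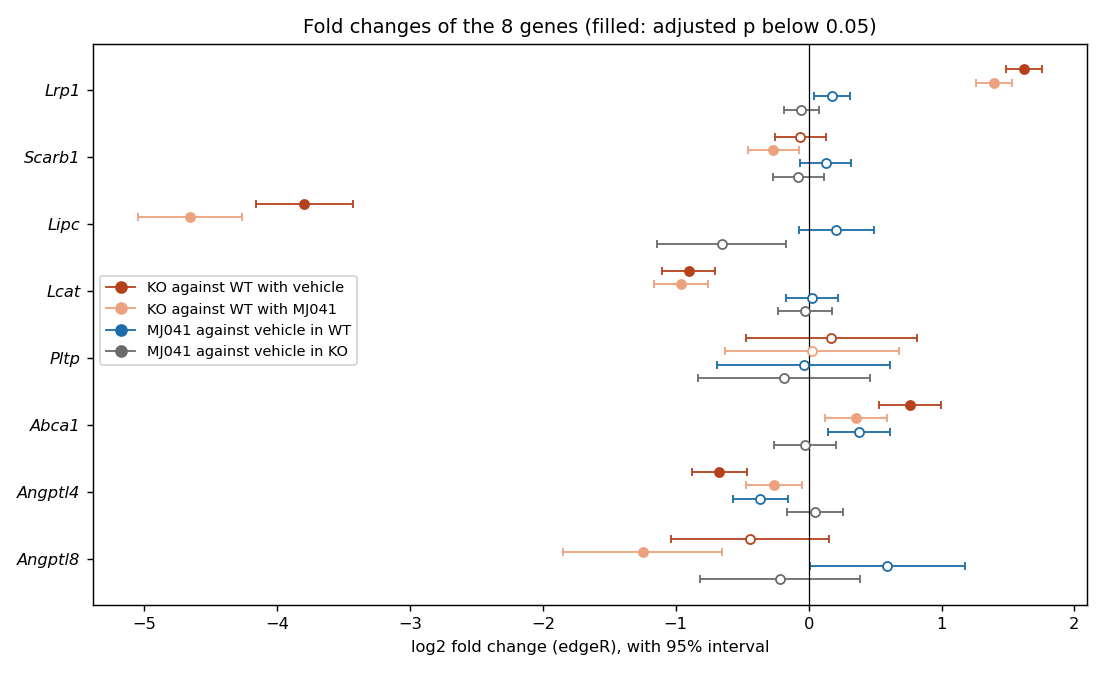
Log2 fold change of each of the 8 genes in the 4 pairwise comparisons, with 95% intervals from edgeR and filled points where the adjusted p is below 0.05. The KO against WT values of Lipc, near -3.79 and -4.66, and of Lrp1, at 1.62 and 1.39, lie far from 0, and no point of either MJ041 against vehicle comparison is filled.

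For Lrp1 and Lipc, the called genes of at least 2-fold with vehicle, the genes with the most similar profiles were looked up among 10209 genes of at least 5 CPM on average. Likeness was the root mean square difference between log2 profiles over the 12 libraries, each centred on its mean. Closest to Lrp1 were Itga7, an integrin subunit gene, at 0.088 and Emp2, a membrane protein gene, at 0.10. Itga7 stood at 34.0 CPM in WT and 95.2 CPM in KO with vehicle. Closest to Lipc were Apoa4, an apolipoprotein gene, at 0.293 and Cyp2c70, a bile acid hydroxylase gene of a multigene family whose reads may be shared, at 0.319. Apoa4 stood at 610 CPM in WT and 59.6 CPM in KO with vehicle. Over the 4 group means in place of libraries, Emp2 and Apoa4 were again among the nearest pair, joined by Ptp4a3 and Gchfr.

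The other genes of lipoprotein uptake, remodelling and cholesterol export were taken from 5 lists of 46 genes, of which 43 were tested and Lrp2, Angptl1 and Angptl7 were not. With vehicle 16 of 43 rose and 10 fell in KO, beside 27.5% of all genes that rose and 26.9% that fell, so the called share is near the background of 54.5%. The median log2 fold change was 0.10 against -0.00 over all genes, and the list counts below for this comparison are to be read against the same shares.

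Of the 16 other uptake receptors tested, 7 rose and 4 fell, with a median of 0.22, beside 27.5% and 26.9% of all genes. Sorl1, a sorting receptor, was at 0.513 CPM in WT and 10.1 CPM in KO, a log2 fold change of 4.27 ± 0.31 (adjusted p = 2.34e-07, edgeR). Sort1, another sorting receptor, rose by 2.50 ± 0.14 from 3.18 to 18.1 CPM, and Cd36, a fatty acid and scavenger receptor, by 1.34 ± 0.13 from 19.1 to 48.4 CPM. Vldlr, a receptor for triglyceride-rich particles named after its values were seen, rose from 18.3 to 74.6 CPM, by 2.03 ± 0.33 (adjusted p = 0.000188, edgeR).

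Of the 7 genes whose products regulate these receptors, 1 rose and 2 fell. Pdzk1, the adaptor that holds SR-BI at the cell surface, fell by 3.66 on the log2 scale, from 4.17 to 0.324 CPM (adjusted p = 3.17e-06, edgeR). Lrpap1, a chaperone of LRP1 and its relatives, rose by 0.29 from 36.8 to 45.2 CPM.

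Of the 8 other lipases and their helpers, 5 rose and 0 fell, with 3 not passing, and the median was 0.63. Of all genes 54.5% were called, so 5 of 8 is near that share. Lpl, the lipase of triglyceride-rich particles, rose from 20.0 to 55.7 CPM, by 1.48 ± 0.14 (adjusted p = 2.33e-06, edgeR). Sel1l, needed for the lipase to leave the endoplasmic reticulum, rose by 1.39 ± 0.15 from 128 to 336 CPM, and Lipa, the lysosomal acid lipase, by 0.67 ± 0.08 from 136 to 216 CPM. Lipc itself is not in that list.

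Of the 6 other angiopoietin-like and proprotein convertase genes tested, 2 rose and 3 fell. Angptl2 rose by 2.41 ± 0.26 from 3.08 to 16.4 CPM, Furin fell by 0.83 from 395 to 222 CPM, and Pcsk5 fell by 0.97 from 7.91 to 4.02 CPM. Of the 6 other genes of cholesterol export, 1 rose and 1 fell: Abca7 by 0.75 ± 0.09 from 19.1 to 32.1 CPM, and Npc1 by -0.26 ± 0.08 from 174 to 144 CPM.

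**Figure D4:**
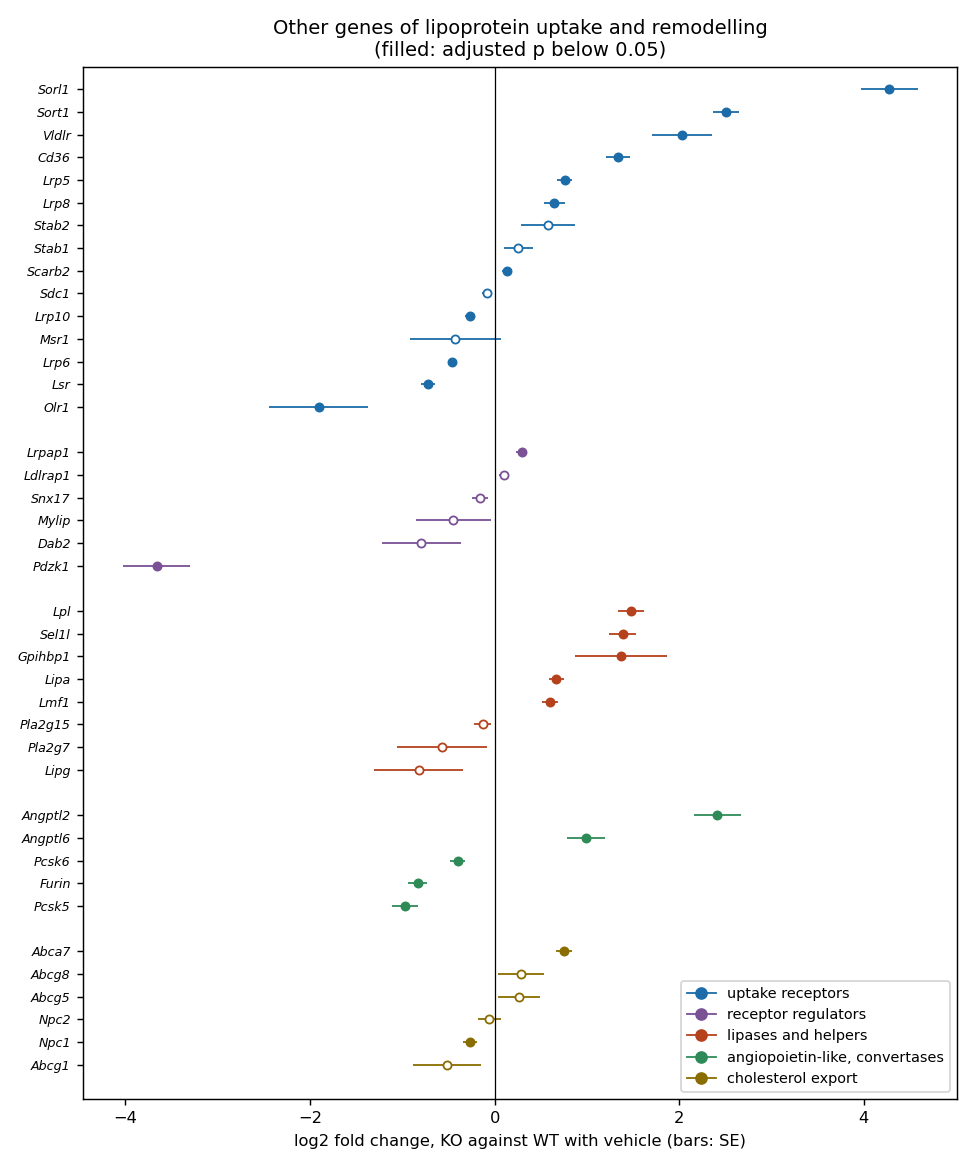
Log2 fold change between KO and WT cells with vehicle for 40 of the other 43 genes tested, with SE bars, grouped by list and filled where the adjusted p is below 0.05. Of the lipases and their helpers 5 of 8 are filled on the higher side and 0 on the lower, and the other lists hold filled points on both sides. Of all genes 27.5% rose and 26.9% fell, 54.5% together, so 5 of 8 is near that share. Lipc, which fell, is not in that list.

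With MJ041 in WT 0 of the 43 genes passed by edgeR, against 2.21% of all genes. At an unadjusted p under 0.05 there were 13, against 21.6%, and DESeq2 called 5, against 6.49%. Among the genes with the highest levels of each list, Sdc1, a heparan sulfate receptor of remnants, differed by 0.14 ± 0.06 (adjusted p = 0.172, edgeR), Lipa by 0.26 ± 0.08 (adjusted p = 0.1, edgeR), Furin by 0.08 ± 0.10 (adjusted p = 0.696, edgeR) and Npc2 by -0.41 ± 0.12 (adjusted p = 0.0893, edgeR). In KO cells 0 of 43 passed and 1 had an unadjusted p under 0.05, against 0% and 2.77% of all genes, and DESeq2 called 0. In the interaction 0 of 43 passed by either tool, against 0% of all genes by edgeR and 1.77% by DESeq2, and 11 had an unadjusted p under 0.05 by edgeR, against 13.3%.

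Under MJ041 18 of the 43 genes rose and 11 fell in KO against WT, with a median of 0.25 against 0.02 over all genes. Of all genes 26.8% rose and 27.6% fell there, 54.4% together. Uptake receptors gave 9 higher and 4 lower, among them Sort1 (2.97 ± 0.15), Sorl1 (4.56 ± 0.33) and the Wnt co-receptor Lrp6 (-0.61 ± 0.05). Lipases and helpers gave 5 higher and 0 lower, with Lpl at 1.55 ± 0.14, Sel1l at 1.27 ± 0.15 and the lipase maturation factor Lmf1 at 0.48 ± 0.08. Angiopoietin-like and convertase genes gave 1 higher, Angptl2 (2.35 ± 0.26), and 4 lower, with Furin at -0.96 ± 0.10 and Pcsk6 at -0.61 ± 0.08. Receptor regulators gave 1 higher, Lrpap1 (0.55 ± 0.06), and 2 lower, among them Pdzk1 (-4.28 ± 0.38). Cholesterol export gave 2 higher, Abca7 (0.70 ± 0.09) and Npc2 (0.37 ± 0.12), and 1 lower, Npc1 (-0.43 ± 0.08).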

How the data were processed

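RNA sequencing was done on 12 libraries of primary mouse hepatocytes, 3 in each of 4 groups of genotype and treatment. Per the labels, stranded libraries were sequenced on an Element AVITI instrument. The authors deposited raw counts of reads per Ensembl gene, without normalization. Tools named in the submitters' processing notes are STAR 2.7.10b, Trimmomatic 0.34, DESeq2, FastQC and featureCounts, with the build mm39; the strand and multimapping settings are not given in the sources used here. Symbols were found for 52081 of 55414 genes and for 14885 of the 14919 tested, and all 12 columns matched a sample.

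Genes were kept by filterByExpr (minimum count 10), and libraries held 16740761 to 17902832 counts. One edgeR 4.0.16 quasi-likelihood fit (R 4.3.3, TMM scaling, 1 coefficient per group, all 12 libraries) gave the 5 comparisons: KO against WT with each treatment, MJ041 against vehicle in each genotype, and the interaction. The p-values of every tested gene were adjusted together (Benjamini-Hochberg, threshold 0.05), and log2 fold changes carry the SE. Alternatives were RLE size factors, library totals, no filter, the compared groups alone, a replicate block, an other-cell marker covariate, leaving out libraries, and DESeq2 1.42.0. The covariate was the mean log2 CPM of the tested other-cell markers, centred over the libraries, and not their summed CPM. Most of these markers were lower with MJ041 in WT, so there the covariate cannot be told apart from the treatment. Libraries of a group differed by more than counting noise (chi-square per degree of freedom 4.39 to 14.6). The scripts were tested on simulated counts.

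The 8 genes were picked by symbol, with no rule on their values, but they, the lists and the tests were chosen with earlier results of these data known. Of each other list the text names up to 3 called genes with the smallest adjusted p, or, where none was called, genes with the highest mean. Gene positions, overlaps and lengths come from GENCODE M21 (GRCm38), and promoter windows from RefSeq (GRCm38.p6); no coordinate was converted to mm39. Some genes of the lists are counted in them but not reported here by name.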

Additional observations from a re-analysis of the deposited data

Results flagged for a closer look

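For Lrp1 the libraries with MJ041 lay on opposite sides of the vehicle libraries in the 2 genotypes. All 3 WT libraries with MJ041 lay above all 3 WT vehicle libraries, and all 3 KO libraries with MJ041 lay below all 3 KO vehicle libraries. Of all genes, 22.3% had no overlap between MJ041 and vehicle libraries in WT and 9.51% in KO, in either direction. The share of all genes with opposite sides in the genotypes was not counted. The difference of the Lrp1 responses was -0.23 on the log2 scale, with a 95% interval from -0.42 to -0.04. It did not pass the test after adjustment (adjusted p = 0.278, edgeR), and 13.3% of all genes had an unadjusted interaction p under 0.05 by edgeR. The steps were small, from 170 to 192 CPM in WT and from 523 to 504 CPM in KO.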

How the results depend on the processing

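The calls of Lrp1, Lipc, Lcat, Abca1 and Angptl4 in KO against WT with vehicle, and of Lrp1, Lipc, Lcat, Abca1 and Angptl8 under MJ041, held under all 20 alternatives. The MJ041 comparisons did not hold in that way. In WT, main counts of 0 of the 8 genes, 0 of 43 list genes and 329 of all genes became 3, 12 and 1667 without the filter, 2, 5 and 906 with DESeq2, and 1 (Angptl4, -0.36), 5 and 649 with the replicate block. The number of genes tested differed between settings. As shares of it, the counts of all genes were 2.21% of 14919, 5.52% of 30185 without the filter, 6.49% of 13958 with DESeq2 and 4.35% of 14919 with the block. The count of all genes fell to 0 when the compared groups were fitted alone and with the marker covariate. It was also 0 without both libraries low in stellate markers, a setting that leaves 1 WT library with MJ041, takes its spread from the other groups and says little about stability. Leaving out 1 library gave 0 to 2, 0 to 10 and 0 to 2059. In KO the count of all genes, 0, was 15 without the filter, 0.0497% of 30185. For the interaction, counts of 0 of the 8 genes, 0 list genes and 0 of all genes became 4, 10 and 886 without the filter, 1, 0 and 227 with DESeq2, and 0 to 1, 0 to 5 and 0 to 852 when 1 library was left out. Here 886 was 2.94% of 30185 genes and 227 was 1.77% of 12840. The causes were not tested.

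Some values that had not passed the test changed sign. With MJ041 in WT, Scarb1 was -0.018 without both low libraries, Lcat was -0.034 with library totals, -0.038 with the covariate and -0.13 without both low libraries, and Pltp was 0.48 and 0.39 in the last 2 settings. The Lcat interaction was 0.0053, 0.016 and 0.094 in those 3 settings, and Pltp in KO against WT under MJ041 was -0.61 with the covariate and -0.41 without both low libraries. Leaving out 1 library gave, for KO against WT with vehicle, -0.10 to 0.66 for Pltp and -0.72 to 0.025 for Angptl8. It gave -0.071 to 0.10 for Lcat and -0.32 to 0.47 for Pltp with MJ041 in WT, and -0.11 to 0.049 for Lcat and -0.025 to 0.12 for Angptl4 with MJ041 in KO. It gave -0.13 to 0.04 and -0.66 to 0.13 for the Lcat and Pltp interactions, and -0.18 to 0.30 for Pltp in KO against WT under MJ041.

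Vehicle and MJ041 libraries of a genotype were correlated by log2 CPM after the mean of each group was subtracted. Same-numbered libraries gave -0.01 to 0.499 in WT and 0.039 to 0.458 in KO. Libraries of unlike number gave -0.53 to 0.445 in WT and -0.436 to 0.111 in KO. Not every same-numbered value exceeded 0.1, so the replicate numbers were not taken as pairs. Still, 5 of 6 KO and 3 of 6 WT libraries correlated best with their own number. The block changed no other call of the 8 genes. Lipc in KO rests on 38 to 86 counts and Pltp on 89 to 236 counts a library, which limits both, and without molecular identifiers these counts may hold copies of the same molecule.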

Other observations

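Abca1 is a known target of the liver X receptors and Angptl4 of PPARA, so lists of genes known to answer to these receptors were read beside them. Of 10 liver X receptor targets, 1 rose and 3 fell in KO against WT with vehicle, where 27.5% of all genes rose and 26.9% fell. Their median log2 fold change was -0.09, against -0.00 over all genes. Srebf1, the regulator of fatty acid synthesis, fell by 0.48 on the log2 scale, Nr1h3, the gene of the receptor itself, by 0.31 and Lpcat3, a phospholipid remodelling enzyme, by 0.29. With MJ041 in WT 1 of the 10 rose, against 2.21% of all genes called: Scd1, the stearoyl-CoA desaturase gene, from 2138 to 3848 CPM (0.85 ± 0.18, adjusted p = 0.0388, edgeR). In KO cells Scd1 stood at 2423 and 2037 CPM without and with MJ041 (-0.25 ± 0.18, adjusted p = 1, edgeR), and the interaction of -1.10 ± 0.25 did not pass (adjusted p = 0.141, edgeR). Under MJ041 2 of the 10 rose and 4 fell in KO against WT, where 26.8% of all genes rose and 27.6% fell, with Srebf1 at -0.65 ± 0.08, Scd1 at -0.92 ± 0.18 and Arl4c, a small GTPase gene, at 0.54 ± 0.11.

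Of 16 PPARA targets, 6 rose and 8 fell in KO against WT with vehicle, beside 27.5% and 26.9% of all genes, with a median of -0.32. Fabp1, the liver fatty acid binding protein, fell by 5.15 on the log2 scale, from 205 to 5.76 CPM (adjusted p = 1.12e-09, edgeR). Hadha, of mitochondrial fatty acid oxidation, rose by 0.90 ± 0.07 and Vnn1, a pantetheinase gene, by 0.86 ± 0.10. With MJ041 none of the 16 passed in either genotype, against 2.21% of all genes in WT and 0% in KO. Among the highest of them in WT was Plin2 (0.08 ± 0.06, adjusted p = 0.546, edgeR). Under MJ041 5 of the 16 rose and 10 fell in KO against WT, beside 26.8% and 27.6% of all genes, with Fabp1 at -5.46 ± 0.21, Creb3l3, a hepatic transcription factor gene, at -2.63 ± 0.26 and the peroxisomal thiolase gene Acaa1b at -1.94 ± 0.18.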
